A study of Mus musculus with 6 samples.

Results

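The genes of glycolysis, of lactate production and export, of pyruvate entry into mitochondria and of the pentose phosphate pathway were read in LSK cells with and without O-GlcNAcase. The 39 genes were chosen by symbol, 21 of them for glycolysis, 4 for lactate, 7 for pyruvate entry and 7 for the pentose phosphate pathway, and all 39 were found among the 53445 loci of the deposited table. Where a symbol was listed more than once (3 genes), the longest locus was used. Levels were measured by poly(A) RNA-Seq of Lin-Sca+Kit+ (LSK) bone marrow cells, the compartment that holds blood stem cells and multipotent progenitors. The cells were sorted from 3 OgaVav-Cre and 3 wildtype mice, all female, about 12 weeks old and on a C57BL/6 background. In OgaVav-Cre mice a floxed Oga allele (fl/fl) was deleted by Vav-iCre, a transgene active across the blood lineages, so that the deletion was not limited to LSKs. The sources used here do not say whether the wildtype mice used for RNA-Seq carried Vav-iCre or a floxed allele.

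Glycolysis converts glucose to pyruvate in the cytosol and yields ATP and building blocks. Pyruvate is then either reduced to lactate and exported, or oxidized in mitochondria by the pyruvate dehydrogenase complex, which pyruvate dehydrogenase kinases switch off. The pentose phosphate pathway leaves glycolysis at glucose 6-phosphate and provides NADPH and ribose. Long-term blood stem cells are known to favor glycolysis over mitochondrial oxidation. The hexosamine pathway, which makes the donor sugar for O-GlcNAc, takes fructose 6-phosphate out of glycolysis, and OGA removes O-GlcNAc from proteins.

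The count totals were between 25190298 and 27064389 reads in OgaVav-Cre and between 19318056 and 21684561 reads in wildtype libraries, and the 39 genes took 0.261 to 0.303% of them. Oga, listed as Mgea5, was at 4.61, 4.31 and 4.01 CPM (counts relative to the TMM-scaled library total of edgeR) in OgaVav-Cre and at 148, 154 and 116 CPM in wildtype libraries. All 10 LSK markers, among them Kit, Cd34 and Flt3, were detected in each library, with summed levels of 1675 to 2344 CPM in OgaVav-Cre and 1715 to 2472 CPM in wildtype, and none had an unadjusted p below 0.05. Markers of lineage-positive cells (12 genes, 8 higher in OgaVav-Cre, with an unadjusted p below 0.05 for Cd4 alone) were present too, with sums of 339 to 2880 CPM in OgaVav-Cre and 531 to 1064 CPM in wildtype. OgaVav-Cre replicate 3 had the highest sum. Immunoglobulin transcripts (Ighm, Igkc and Igj) took 9.88, 4.14 and 1.17% of all reads in OgaVav-Cre against 2.05, 5.48 and 1.36% in wildtype mice, in the order of replicates 1, 2 and 3. The 9 plasma cell markers were all higher in OgaVav-Cre, none with an unadjusted p below 0.05, with sums of 11913 to 111632 CPM against 12773 to 55581 CPM. The sums of 6 erythroid markers were 423 to 523 CPM against 401 to 565 CPM. In bulk RNA, fewer cells of a type and less RNA per cell cannot be told apart.

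Several of these genes have processed pseudogenes, copies of their mRNA scattered over the genome, so the deposited counts were first set against the genome sequence. Every stretch of 50 bases, the read length, was taken from 1 annotated coding transcript of each gene and looked up in mm9. In 16 of the 39 genes no such window occurred anywhere else. In 4 genes more than 50% of the windows did: Pgk1 (92.9%), Pgam1 (91.9%), Gapdh (85.6%) and Eno1 (72.2%). Pkm2 (41.4%), Pdhb (34.7%), Ldhb (33.6%), Gpi1 (31.4%), Ldha (29.1%) and Tpi1 (23.6%) followed. The 3 windows printed here, from 3 of these genes, show what a single read would hold, and each is in lower case because all of its bases recur. The Gapdh window lies at chr6:125112916-125112965 on the minus strand and was found at 83 other places. The Pgam1 window is at chr19:41990098-41990147 on the plus strand (3 other places) and the Eno1 window at chr4:149619224-149619273 on the plus strand (5 other places).
Gapdh: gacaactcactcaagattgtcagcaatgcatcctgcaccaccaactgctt
Pgam1: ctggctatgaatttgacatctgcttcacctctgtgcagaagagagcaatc
Eno1: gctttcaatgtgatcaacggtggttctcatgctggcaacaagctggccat

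How reads with several matches were counted is not given in the sources used here. Scaled to the listed length and the library size (RPKM), Gapdh was at 1.97 ± 0.510 in OgaVav-Cre and 2.58 ± 0.256 in wildtype LSKs (mean ± SD, n = 3 here and below), and Pgk1 at 4.96 ± 0.865 and 3.55 ± 0.638. Eno1 was at 5.66 ± 1.65 and 5.23 ± 1.05 RPKM. These enzymes act in the lower part of glycolysis, and their deposited levels were below those of Tpi1 (38.5 ± 7.82 and 30.6 ± 2.38 RPKM) and Pkm2 (38.1 ± 2.61 and 33.7 ± 1.25 RPKM). Pgam1, with a similar share of repeated windows, was at 56.8 ± 1.69 and 50.9 ± 7.43 RPKM, the highest wildtype level of the 39 genes. The part that repeated sequence has in these levels was not tested. The listed locus length also enters the RPKM, and for Gapdh it is 3893 bases against 1420 bases of the transcript searched.

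**Figure D1:**
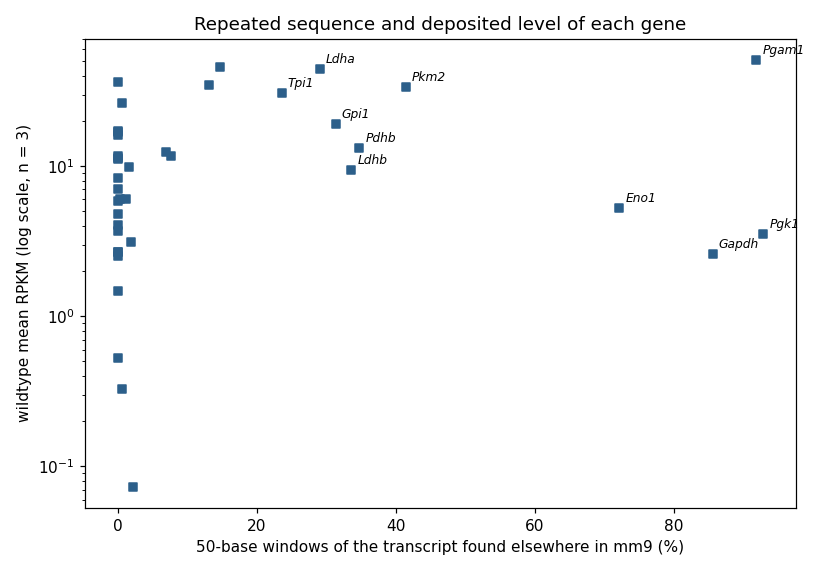
Wildtype mean RPKM (vertical axis, log scale, n = 3) against the percentage of 50-base windows of each gene's transcript that occur elsewhere in mm9, 1 square a gene. Gapdh, Pgk1 and Eno1 lie at the far right between 2.58 and 5.23 RPKM, and Pgam1 lies there at 50.9 RPKM.

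In wildtype LSKs, 18 of the 39 genes were above 10 RPKM, 18 were between 1 and 10 RPKM and 3 were below 1 RPKM. After Pgam1 came Aldoa (45.5 ± 4.35), Ldha (44.3 ± 9.76), Tkt (36.1 ± 3.67), Taldo1 (34.5 ± 2.48), Pkm2, Tpi1, Pdha1 (26.4 ± 2.09) and Gpi1 (19.04 ± 1.66 RPKM). Pgam1, Aldoa and Ldha differed from each other by less than the larger of their SDs, and so did Tkt, Taldo1 and Pkm2. The lowest were Pfkfb1 (0.525 ± 0.118), Eno2 (0.327 ± 0.137), the neuronal enolase, and Pdk4 (0.0734 ± 0.0313 RPKM). In OgaVav-Cre LSKs Ldha came first (58.1 ± 6.12) and was followed by Pgam1, Aldoa (49.0 ± 4.82) and Tkt (42.3 ± 5.71 RPKM). Both orders depend on the listed locus length, which departs unevenly from that of the transcript searched. It is 11003 against 2037 bases for Gpi1 and 6757 against 2221 bases for Pkm2, but 1832 against 1831 bases for Pgam1.

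**Figure D2:**
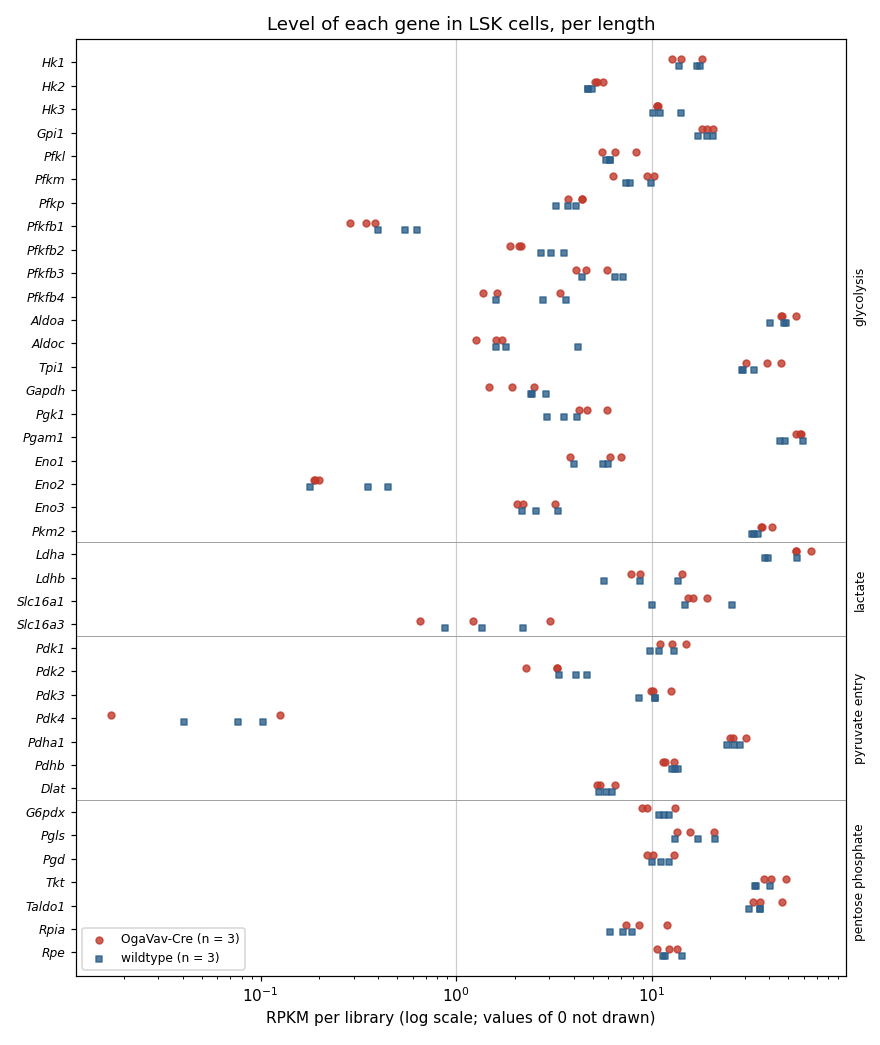
RPKM of the 39 genes in each library (horizontal axis, log scale; circles OgaVav-Cre, squares wildtype, n = 3 each), grouped by part of the pathway. The genes span from below 0.1 RPKM (Pdk4) to above 50 RPKM (Pgam1, Ldha), and in most genes the circles and squares overlap.

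The comparison of OgaVav-Cre with wildtype asked whether loss of OGA changed the transcript levels of these enzymes. None of the 39 genes was called changed. Of them 38 could be tested, and none passed the 2 cutoffs (0.05 for the adjusted p-value, 1 for the size of the log2 fold change), which 0.0318% of the 22032 loci tested did (7 loci, Oga among them). Adjusted p-values of the 38 genes ran from 0.412 to 0.966 in the quasi-likelihood test of edgeR (adjusted by Benjamini and Hochberg over all loci), and neither DESeq2 nor limma-voom called any of them. Pdk4 had 2, 15 and 0 reads in OgaVav-Cre against 4, 7 and 11 reads in wildtype and was not tested. An unadjusted p below 0.05 was found for 3 genes, or 7.89% of the 38, against 10.6% of all loci. Higher in OgaVav-Cre were Pgk1 and Ldha (background 4.38% of all loci), and lower was Pfkfb2 (background 6.27%). The count was 8 without OgaVav-Cre replicate 3 and 7 without wildtype replicate 1, where the share of all loci rose to 14.3 and 14.5%. It was 1 when OgaVav-Cre replicate 1, its replicate 2 or wildtype replicate 2 was left out, where the share of all loci was 6.51, 7.67 and 7.51%.

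Of the 38 genes 25 were above 0 on the log2 scale, or 65.8%, against 50.5% of all loci. With RPKM in place of counts 20 or 21 were, at pseudocounts of 0.1 and 1. There the median log2 fold change of all loci was itself -0.06 and -0.04. With counts, the median was 0.11 for the 38 genes and 0.0041 for all loci. At a mean level of at least 10 CPM, which 33 of the genes and 11876 loci reached, the medians were 0.12 and 0.04, and 56.6% of those loci were above 0. The 95% confidence interval of the fold change lay within 2-fold either way for 31 genes and reached beyond it for 7, so that a change of 2-fold was outside the interval for most of them. For 16 genes the interval lay within 1.5-fold.

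**Figure D3:**
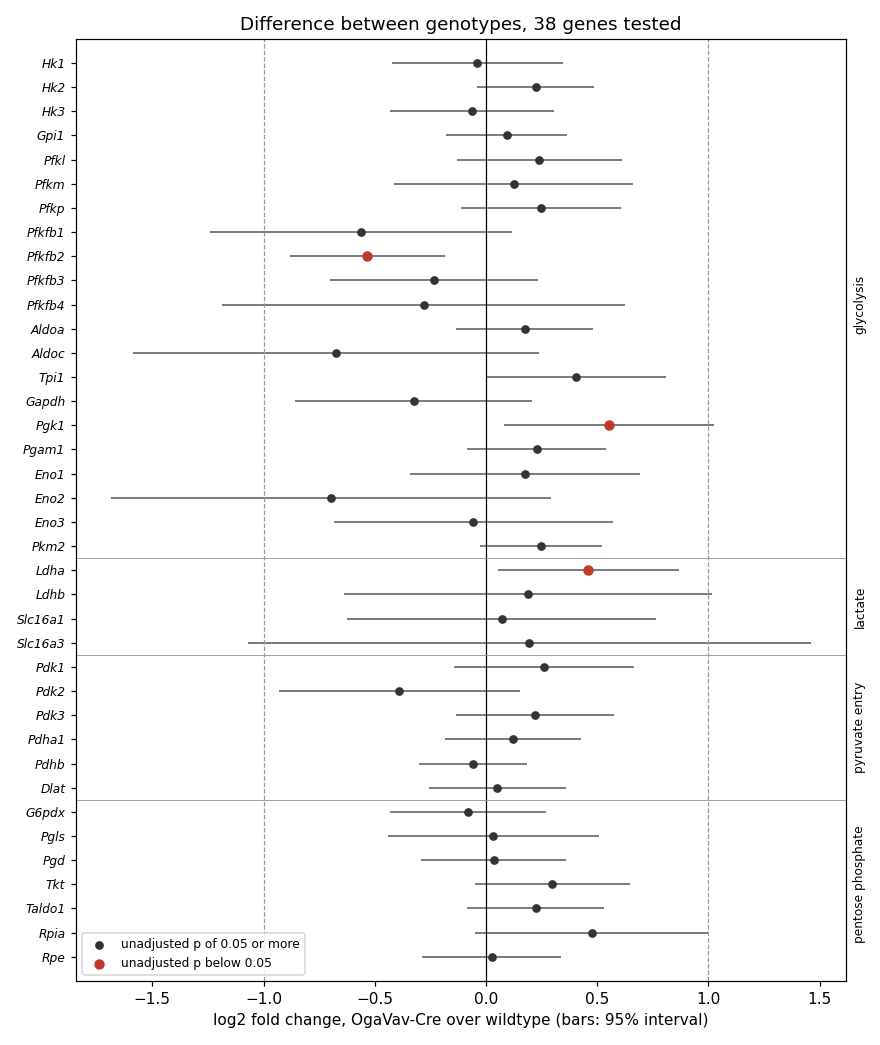
Log2 fold change of OgaVav-Cre over wildtype for the 38 genes tested, with 95% intervals as bars and dashed lines at -1 and 1. Pfkfb2 (-0.53), Pgk1 (0.55) and Ldha (0.46), drawn in red, have intervals that do not reach 0, and the intervals of 31 genes stay between the dashed lines.

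Genotypes did not overlap for 4 genes that were higher in OgaVav-Cre, Hk2, Pgk1, Pkm2 and Taldo1 (background 7.5% of all loci), and for 1 gene that was lower, Pfkfb2 (background 9.97%). Leaving out OgaVav-Cre replicate 3 gave 16 genes higher without overlap and 3 lower, where 16.1 and 18.1% of all loci were. Without wildtype replicate 1 these counts were 11 and 4 (17.7 and 18.2% of all loci), without wildtype replicate 2 they were 8 and 2 (11.8 and 14.6%), and without wildtype replicate 3 they were 5 and 4 (10.4 and 12.8%).

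Glucose is first trapped in the cell by hexokinase. Hk1, the broadly expressed form, was at 153, 181 and 125 CPM in OgaVav-Cre against 165, 138 and 168 CPM in wildtype. These values overlapped, and the log2 fold change was -0.04 (95% interval -0.42 to 0.35). Hk2, the inducible form, was at 40.0, 37.4 and 39.6 CPM against 32.7, 33.9 and 33.7 CPM. The 3 OgaVav-Cre values all exceeded the wildtype ones, with a log2 fold change of 0.22 (standard error 0.113, unadjusted p = 0.0862, adjusted p = 0.52). Hk3, prominent in myeloid cells, overlapped between genotypes at 47.5 to 53.1 and 44.5 to 63.9 CPM. Per length, Hk1 made up 47.9 ± 4.79% of the summed hexokinase level in OgaVav-Cre and 49.4 ± 6.18% in wildtype, and Hk3 34.7 ± 2.87 and 35.9 ± 6.32%. The share of Hk2 was 17.3 ± 2.03% against 14.7 ± 0.142%, without overlap. Gpi1, which isomerizes glucose 6-phosphate to fructose 6-phosphate, was at 249.6, 262 and 239 CPM in OgaVav-Cre against 235, 220.0 and 249 CPM in wildtype. Its interval was among the narrower ones, from -0.18 to 0.37.

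Phosphofructokinase commits the sugar to glycolysis. Pfkm led the 3 genes per listed length. Its libraries overlapped at 37.2, 37.0 and 22.7 CPM in OgaVav-Cre against 26.1, 36.2 and 26.6 CPM in wildtype. The listed lengths are 3137 bases for Pfkm, 8719 for Pfkl and 10172 for Pfkp, against transcripts of 2880, 3730 and 4145 bases. In mean wildtype CPM, Pfkm (29.6) was below Pfkl (59.1) and Pfkp (42.3), so this order depends on the listed length. Senp1, on the opposite strand, overlaps Pfkm by 981 bases and had 278% as many reads. The shares of Pfkm (43.8 ± 4.16 and 46.1 ± 3.03%), Pfkl (34.4 ± 2.66 and 33.5 ± 2.96%) and Pfkp (21.8 ± 5.11 and 20.4 ± 1.502%) were alike within their spread. The bifunctional enzymes of the PFKFB family make and break fructose 2,6-bisphosphate, the main activator of phosphofructokinase. All 4 had log2 fold changes below 0, in each of the 16 alternative analyses too, and 1 of them had an unadjusted p below 0.05.

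Pfkfb2 (chr1:132585620-132625830, minus strand) was at 28.3, 23.2 and 26.2 CPM in OgaVav-Cre against 32.4, 38.02 and 41.9 CPM in wildtype. Every OgaVav-Cre value was below every wildtype value. The log2 fold change was -0.53 (standard error 0.151, 95% interval -0.88 to -0.18, unadjusted p = 0.00819, adjusted p = 0.412), and the unadjusted p stayed below 0.05 in each of the 16 alternative analyses. The locus shares reads with its neighborhood: a fusion locus of C4bp-ps1 and Pfkfb2 spans it whole with 99.4% as many reads and a log2 fold change of -0.52, and Yod1, antisense to it, overlaps by 4750 bases and had a log2 fold change of -0.31. The libraries were made with a kit that does not mark strand, so reads of Pfkfb2 and Yod1 in the overlap cannot be told apart. Pfkfb3, the most abundant of the family per length (48.7 ± 10.2% of it in wildtype), was at 43.2, 35.2 and 49.8 CPM against 59.7, 37.9 and 53.0 CPM. Its genotypes overlapped (log2 fold change -0.23, 95% interval -0.70 to 0.24). Pfkfb4 spread widely within both genotypes, at 8.65 to 19.3 CPM and 9.04 to 20.1 CPM, and Pfkfb1 was at 2.04 to 2.53 CPM and 2.53 to 3.93 CPM.

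Aldolase splits fructose 1,6-bisphosphate. Aldoa was at 159, 173 and 144 CPM in OgaVav-Cre against 125, 154 and 144 CPM in wildtype, and it held 96.97 ± 0.339 and 94.8 ± 2.48% of the aldolase level per length. Aldoc, the remainder, was at 5.19 to 6.45 CPM in OgaVav-Cre, and among wildtype libraries replicate 2 stood apart with 15.8 CPM against 6.61 and 5.71 CPM. Tpi1, which interconverts the triose phosphates, was at 140.2, 153 and 99.2 CPM against 107, 97.8 and 91.2 CPM. OgaVav-Cre replicates 1 and 2 were above all wildtype libraries and replicate 3 was among them (log2 fold change 0.41, 95% interval -0.00025 to 0.81, unadjusted p = 0.0501). LOC100504270, listed on the opposite strand within Tpi1, had 65.0% as many reads and a log2 fold change of 0.35.

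The later steps of glycolysis hold the genes with the most repeated sequence. Gapdh was at 9.40, 6.61 and 10.98 CPM in OgaVav-Cre against 12.5, 10.997 and 10.3 CPM in wildtype, with overlap. Pgk1, phosphoglycerate kinase, is located at chrX:103382439-103399038 (plus strand) and was at 16.2, 18.9 and 13.4 CPM against 12.9, 9.28 and 10.8 CPM. Its lowest OgaVav-Cre value was just above its highest wildtype value. The log2 fold change of 0.55 was the highest of the 38 genes (standard error 0.204, 95% interval 0.08 to 1.03, unadjusted p = 0.0271, adjusted p = 0.439), and the unadjusted p was below 0.05 in 10 of the 16 alternative analyses. The reads behind it numbered 366, 478 and 367 in OgaVav-Cre against 276, 179 and 256 in wildtype, few for this enzyme, and 92.9% of its windows have other matches. Pgam1 was at 126, 123 and 119 CPM against 121, 102 and 90.9 CPM. Wildtype replicate 1 overlapped with OgaVav-Cre, and the interval ran from -0.08 to 0.54. Eno1 was at 25.7, 38.1 and 42.7 CPM against 36.2, 25.1 and 33.2 CPM, and LOC100503183, listed inside it on the same strand, had 95.4% as many reads. The enolase shares overlapped between genotypes, with Eno1 at 67.4 ± 5.95 and 63.1 ± 10.4% and Eno3, the muscle form, at 30.2 ± 5.59 and 32.9 ± 8.70%.

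Pyruvate kinase closes glycolysis. Pkm2 (chr9:59504310-59527182, plus strand) was at 308, 319.9 and 281 CPM in OgaVav-Cre against 246, 261 and 259.7 CPM in wildtype, without overlap. Its log2 fold change was 0.25 (standard error 0.118, 95% interval -0.03 to 0.52, unadjusted p = 0.0717). LOC100504435, listed on the opposite strand, overlaps Pkm2 by 8844 bases and had 22.1% as many reads and a log2 fold change of 0.43. Summed over the 21 glycolysis genes, the level per length was 268, 303 and 266 RPKM in OgaVav-Cre against 263, 258 and 259 RPKM in wildtype. OgaVav-Cre replicate 2 was highest, and replicates 1 and 3 lay just above wildtype replicate 1 on this scale. Unlike the CPM values, these RPKM sums carry no TMM scaling. The TMM factor was 0.897 for OgaVav-Cre replicate 1 and 1.04 for wildtype replicate 1, and a smaller factor raises the scaled level. How close these libraries lie therefore depends on the scale. Of the 21 genes 11 had a log2 fold change above 0 and 10 below, with a median of 0.09.

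**Figure D4:**
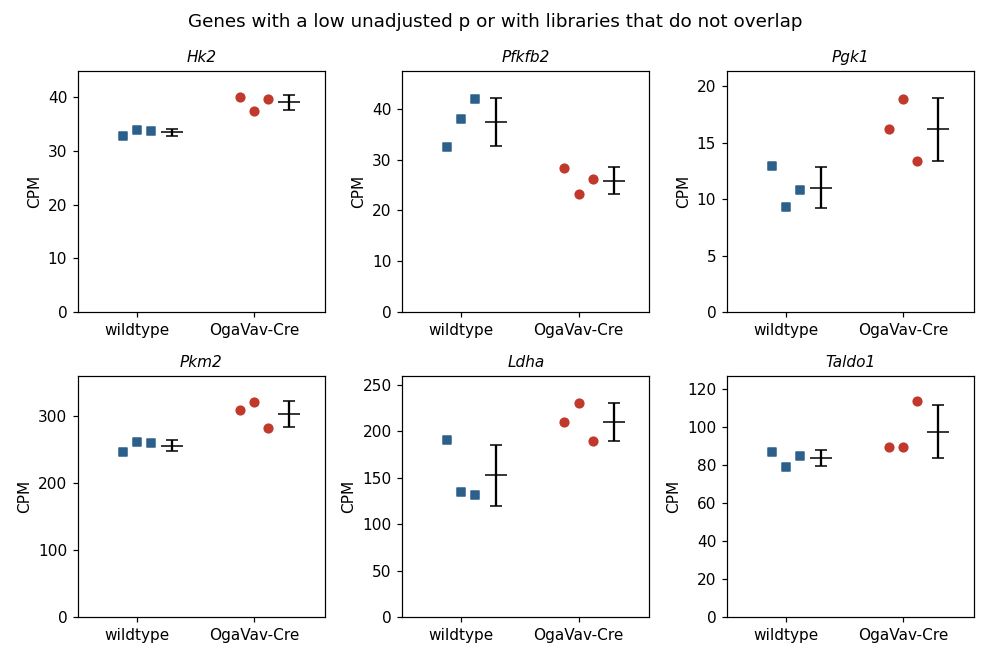
CPM of Hk2, Pfkfb2, Pgk1, Pkm2, Ldha and Taldo1 in each library (squares wildtype, circles OgaVav-Cre; bars mean ± SD, n = 3), with axes from 0. Pfkfb2 is lower in all 3 OgaVav-Cre libraries, and wildtype replicate 1 of Ldha (190.3 CPM) reaches into the OgaVav-Cre range.

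The 4 genes of lactate production and export all had log2 fold changes above 0, with a median of 0.19, but only Ldha was above 0 in all 16 alternative analyses, while Ldhb was in 14, Slc16a1 in 13 and Slc16a3 in 13. Ldha, the lactate dehydrogenase subunit that favors pyruvate reduction, is located at chr7:54096845-54110997 (plus strand). It was at 209, 230.0 and 189 CPM in OgaVav-Cre against 190.3, 135 and 132 CPM in wildtype. Wildtype replicate 1 was slightly above OgaVav-Cre replicate 3, and the other wildtype libraries were lower than all OgaVav-Cre libraries. The log2 fold change was 0.46 (standard error 0.175, 95% interval 0.06 to 0.87, unadjusted p = 0.0306, adjusted p = 0.445), and the unadjusted p was below 0.05 in 10 of the 16 alternative analyses. Ldhb, the subunit that favors lactate oxidation, was at 17.1, 25.7 and 13.9 CPM against 10.03, 24.7 and 15.1 CPM, so that Ldha made up 85.3 ± 2.82 and 82.0 ± 8.52% of the pair per length.

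Slc16a1 (MCT1), the main lactate transporter here with 91.8 ± 4.90 and 90.7 ± 5.27% of the transporter level per length, was at 84.7, 83.5 and 96.6 CPM in OgaVav-Cre against 128, 51.6 and 72.2 CPM in wildtype. The wildtype libraries enclosed all OgaVav-Cre values, and the coefficient of variation was 8.20% in OgaVav-Cre and 47.2% in wildtype. In the same libraries the 6 markers of dividing cells (Mki67, Top2a, Ccnb1, Cdk1, Aurkb and Plk1) had summed log2 levels of 41.1, 40.8 and 41.1 in OgaVav-Cre and 44.9, 36.4 and 37.4 in wildtype, with wildtype replicate 1 the highest for both. Their part in the level of Slc16a1 was not tested. Slc16a3 (MCT4), the low-affinity exporter, ranged from 4.00 to 18.1 CPM in OgaVav-Cre and from 5.25 to 12.8 CPM in wildtype, and its interval, from -1.07 to 1.46, was wide. Csnk1d, on the opposite strand, overlaps Slc16a3 by 2404 bases and had 1832% as many reads. Reads in that overlap cannot be told apart by strand.

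At the entry of pyruvate into mitochondria 4 genes had log2 fold changes above 0 and 2 below. The sign was kept in all 16 alternative analyses for each of them but Dlat, which kept it in 13. Pdha1, the catalytic subunit of the pyruvate dehydrogenase complex, was at 128, 137 and 112 CPM in OgaVav-Cre against 124, 119.7 and 104 CPM in wildtype. Its genotypes overlapped with an interval of -0.19 to 0.42. Pdhb (60.2 to 65.5 and 62.2 to 67.9 CPM, interval -0.30 to 0.18) and Dlat (36.3 to 45.7 and 37.7 to 42.5 CPM, interval -0.26 to 0.36) overlapped as well. Pdk1, the kinase with the highest level per length, was at 147, 159.9 and 115 CPM against 101, 139 and 111 CPM (log2 fold change 0.26, 95% interval -0.14 to 0.67). Only OgaVav-Cre replicates 1 and 2 were above the wildtype range.

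The shares of 2 of the 4 kinases did not overlap between genotypes. Pdk1 made up 48.1 ± 1.078% of the summed kinase level in OgaVav-Cre and 44.6 ± 2.67% in wildtype LSKs, and Pdk2 made up 10.9 ± 1.49% and 16.0 ± 1.59%. Pdk3 held 40.8 ± 2.51 and 39.1 ± 4.33%, and Pdk4 0.156 ± 0.216 and 0.292 ± 0.132%. Pdk2 itself overlapped between genotypes, at 8.21 to 13.0 CPM in OgaVav-Cre and 12.0 to 17.2 CPM in wildtype (log2 fold change -0.39, 95% interval -0.93 to 0.15). Shares were compared for 8 steps with 23 genes in all and not tested, and the genotypes did not overlap for 3 of the genes, Hk2, Pdk1 and Pdk2. No rate over other genes is at hand for such shares.

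**Figure D5:**
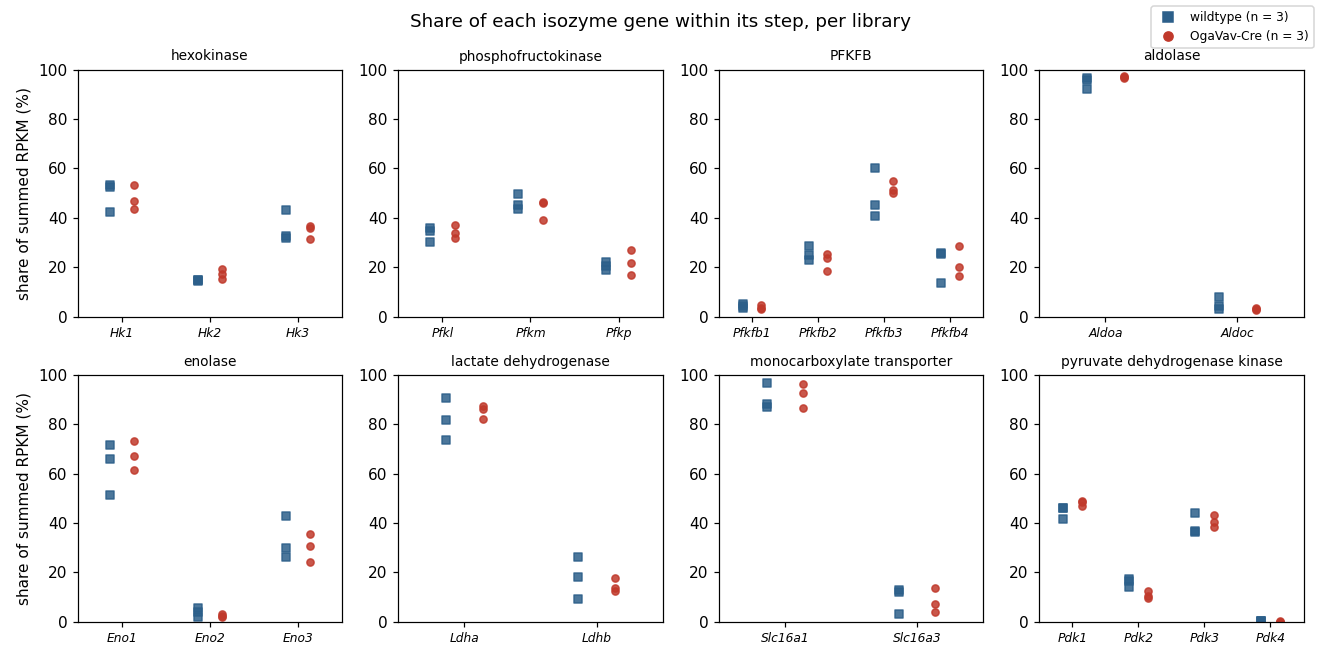
Share of each gene in the summed RPKM of its step (%), 1 panel a step, 1 point a library (squares wildtype, circles OgaVav-Cre, n = 3 each). The same gene leads its step in every library, except in hexokinase and pyruvate dehydrogenase kinase. The Pdk2 squares lie above its circles (16.0% and 10.9% on average).

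In the pentose phosphate pathway 6 of 7 genes were above 0 and 1 below, with a median log2 fold change of 0.03, and the sign was kept in all 16 alternative analyses for Tkt, Taldo1 and Rpia, in 15 for G6pdx, 12 for Pgd, 11 for Pgls and 10 for Rpe. The oxidative branch, which makes NADPH, overlapped between genotypes in each gene. Pgls, its lactonase and the most abundant of the 3 per length, was at 72.5, 57.7 and 87.7 CPM in OgaVav-Cre against 86.9, 56.2 and 70.0 CPM in wildtype. G6pdx, the entry enzyme, ranged from 39.4 to 53.6 and from 43.9 to 48.7 CPM (interval -0.43 to 0.27), and Pgd from 70.5 to 95.4 and from 74.8 to 87.4 CPM (interval -0.29 to 0.36). Ikbkg, which overlaps G6pdx on the opposite strand, had 129% as many reads as G6pdx. A fusion locus of Pgls and Fam129c spans Pgls on the same strand and had 122% as many reads as Pgls.

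The non-oxidative branch links ribose 5-phosphate back to glycolysis. Tkt, transketolase, was at 334, 366 and 278 CPM in OgaVav-Cre against 295, 254.9 and 245 CPM in wildtype. OgaVav-Cre replicates 1 and 2 were above the wildtype range and replicate 3 was within it (log2 fold change 0.30, standard error 0.150, 95% interval -0.05 to 0.65). Taldo1, transaldolase, was at 89.5, 89.5 and 113 CPM against 86.8, 78.8 and 84.9 CPM, without overlap, and its log2 fold change was 0.22 (standard error 0.132, unadjusted p = 0.132, adjusted p = 0.564). Pddc1, on the opposite strand, overlaps Taldo1 by 10332 bases and had 36.2% as many reads. Rpia, the ribose 5-phosphate isomerase, was at 80.1, 53.0 and 44.9 CPM against 47.5, 44.5 and 36.1 CPM. OgaVav-Cre replicate 1 alone was far above the others, and the interval ran from -0.05 to 1.00. Rpe, the epimerase, had a log2 fold change of 0.03 (95% interval -0.29 to 0.34).

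The promoters of the 3 genes with an unadjusted p below 0.05 were read from RefSeq (GRCm38.p6), since HIF and MYC family proteins are known to act on several genes of glycolysis through short motifs. The motifs searched were ACGTG on either strand, the core of the hypoxia response element, and CACGTG, an E-box, which contains the former. All 39 genes matched a promoter (59 in all). The 250 bases before each listed start were searched. ACGTG was present there in 15 of the 39 genes, or 38.5%, against 18.5% of all genes, and the E-box in 6, or 15.4%, against 6.86%. A gene with more listed promoters has more places for a match. Counted by promoter, ACGTG was present in 32.2% against 16.6% of all promoters, and the E-box in 10.2% against 6.02%. In the 250 bases before the most upstream listed start, printed with the matches in capitals, Ldha (chr7:46845554-46845803, plus strand) and Pgk1 (chrX:106186850-106187099, plus strand) hold matches, and Pfkfb2 (chr1:130716049-130716298, minus strand) holds none. This differs by start: the other 2 listed promoters of Pfkfb2 hold matches and the second of Ldha holds none, so the windows do not set the genes apart. A match is not a bound site.
Ldha: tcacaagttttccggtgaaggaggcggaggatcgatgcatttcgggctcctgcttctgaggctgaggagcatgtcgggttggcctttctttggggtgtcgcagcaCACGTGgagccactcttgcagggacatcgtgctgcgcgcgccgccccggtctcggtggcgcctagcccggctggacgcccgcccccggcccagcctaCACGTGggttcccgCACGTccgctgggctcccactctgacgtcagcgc
Pgk1: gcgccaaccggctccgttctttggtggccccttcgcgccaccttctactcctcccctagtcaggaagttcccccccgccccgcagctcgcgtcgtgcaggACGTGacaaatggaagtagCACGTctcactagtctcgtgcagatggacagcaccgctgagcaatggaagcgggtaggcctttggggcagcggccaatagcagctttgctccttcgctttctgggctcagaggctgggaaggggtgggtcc
Pfkfb2: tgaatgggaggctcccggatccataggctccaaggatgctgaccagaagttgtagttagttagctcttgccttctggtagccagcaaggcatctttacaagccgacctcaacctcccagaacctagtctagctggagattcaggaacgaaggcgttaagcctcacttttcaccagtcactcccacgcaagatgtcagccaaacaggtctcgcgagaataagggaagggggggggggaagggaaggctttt

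Of 26 regulators and hypoxia targets 24 could be tested, 13 above 0 and 11 below, and none had an unadjusted p below 0.05 (median log2 fold change 0.04, lowest adjusted p 0.492). Hif1a was at 64.4, 61.8 and 104 CPM in OgaVav-Cre against 84.5, 65.5 and 71.6 CPM in wildtype, and Myc at 279, 263 and 187 against 259, 232 and 250.2 CPM. Both overlapped between genotypes. Of the regulators tested, Vhl (log2 fold change 0.24) and Keap1 (0.25) were higher in OgaVav-Cre without overlap (background 7.5% of all loci). Egln3 (-0.22) was lower without overlap (background 9.97%).

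Of 55 further genes of the same pathways and of gluconeogenesis and glycogen, 43 could be tested, 27 above 0 and 16 below, with a median log2 fold change of 0.10 and no call (lowest adjusted p 0.391). An unadjusted p below 0.05 was found for 2 of the 43, where 10.6% of all loci had one. Rbks, ribokinase, was at 2.08, 2.33 and 2.55 CPM in OgaVav-Cre against 6.14, 4.25 and 4.40 CPM in wildtype, each OgaVav-Cre value below each wildtype value (log2 fold change -1.082, standard error 0.270, unadjusted p = 0.0042). Pgam2, the muscle phosphoglycerate mutase, was at 17.5, 3.60 and 3.03 CPM against 1.64, 2.23 and 1.40 CPM, and OgaVav-Cre replicate 1 decided the size of its log2 fold change of 2.19, which was 0.92 without that library.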

How the data were processed

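LSKs were sorted and RNA was sequenced by the authors as single-end reads of 50 bases, aligned to mm9 and counted per locus with Genomatix (versions not given in the sources used here; the submitters' processing notes name CASAVA 1.8.2). The deposited table holds raw counts per locus, RPKM made from them by the authors, a normalized expression column, and the authors' log2 fold changes and p-values. The last 3 were not used. Members, lists and rules were chosen with earlier results of these data known.

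Counts of 22032 loci kept by filterByExpr were compared in R 4.3.3 with edgeR 4.0.16 (TMM, glmQLFit, glmQLFTest, Benjamini-Hochberg adjustment). Intervals are 95% intervals from the same fit. The biological coefficient of variation was 0.308. A floor of 3 reads corresponds to 0.111 to 0.155 CPM in library totals of 19318056 to 27064389 reads, counting error only. Levels between genes were compared in RPKM. P-values measure the spread between mice of 1 sort each. Genes given in full were the most abundant of each step, those with an unadjusted p below 0.05 and those whose genotypes did not overlap. Ldhb, Rpia, Hif1a, Myc, Vhl, Keap1, Egln3 and overlapping loci were given in addition after their values were seen. Alternatives used DESeq2 1.42.0, limma 3.58.1 (voom, or trend on log2 of RPKM plus 0.1 or 1), other filters and factors, covariates, the replicate number as a block and each library left out. The fits were tested on simulated data. Figures were made with matplotlib 3.10.9. One repeated window is not reported here.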

Additional observations from a re-analysis of the deposited data

How the results depend on the processing

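Across 16 alternatives no gene of the 39 was called and none reached an adjusted p below 0.05 (lowest 0.211, without wildtype replicate 1). The loci called numbered 7 here, 21 without a filter on low counts, 115 with DESeq2's Wald test, 4 with at least 10 reads in every library, 4 with RPKM and a pseudocount of 1, 3 with the dividing cell markers as covariate and 3 to 9 with a library left out. Members with an unadjusted p below 0.05, 3 here, numbered 5 without the filter, with DESeq2, with the immunoglobulin share as covariate and with the replicate number as a block (replicate block), 1 with RPKM at either pseudocount and 1 to 8 with a library left out. The share of all loci was 10.6% here and 7.90, 6.71, 9.08 and 12.4% in the first 4 of these, 10.8 and 10.9% with RPKM and 5.39 to 14.5% with a library left out. Same-numbered libraries deviated together with correlations of -0.08, 0.26 and 0.32, and OgaVav-Cre replicate 1 correlated best with wildtype replicate 2, so the numbers were not taken as pairs. DESeq2 called 1 related gene, Pgam2. The median of the members, 0.11, was 0.0306 and 0.0291 with RPKM at pseudocounts of 0.1 and 1, where that of all loci was -0.06 and -0.04, and 0.0716 to 0.116 with a library left out. Members without overlap numbered 5 here and 7 to 19 with a library left out. Of all loci, 17.5% did not overlap here. Without OgaVav-Cre replicate 1, 10.3% of all loci were higher and 13.9% lower, and without its replicate 2 these shares were 11.2 and 14.3%. The shares for the other libraries are given above.

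Signs turned for 12 genes. With RPKM the log2 fold changes were -0.0314 for Slc16a3 (pseudocount 0.1), -0.0214 and -0.0182 for Dlat, -0.0337 and -0.0321 for Pgls, -0.0418 and -0.0381 for Pgd and -0.0386 and -0.0360 for Rpe (pseudocounts 0.1 and 1). With the dividing cell markers as covariate they were 0.0093 for Hk3, 0.0449 for Eno3, -0.0309 for Slc16a1, -0.0418 for Pgls and -0.0217 for Rpe, and with the immunoglobulin share -0.0482 for Pfkm. With a library left out they ranged from -0.17 to 0.0905 for Hk1, -0.16 to 0.12 for Hk3, -0.24 to 0.16 for Eno3, -0.10 to 0.59 for Ldhb, -0.17 to 0.51 for Slc16a1, -0.54 to 0.58 for Slc16a3, -0.0256 to 0.14 for Dlat, -0.24 to 0.00302 for G6pdx, -0.12 to 0.21 for Pgls, -0.0769 to 0.14 for Pgd and -0.0345 to 0.13 for Rpe. The cause was not tested.

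Reads limit Pdk4 (0 to 15 a library), Eno2 and Pfkfb1 most. Repeated sequence or overlapping loci limit Gapdh, Pgk1, Pgam1, Eno1, Pfkfb2, Pkm2, Tpi1, Pfkm, Slc16a3, Taldo1, Pgls and G6pdx, among others. Of the 39 genes 27 have another locus in their span, and for 16 such a locus had over 20% as many reads as the gene.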
